A study of Mus musculus with 27 samples.

Results

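The 34 interferon-stimulated genes described here were followed through osteoblast differentiation in culture, and all 34 were found by symbol among the 37991 genes of the files. They were listed by name as known interferon target genes, with earlier results of these data known. The samples were calvarial cells of the strain C57BL/6J-Col3.6 CFP, in which a fragment of the type I collagen promoter drives cyan fluorescent protein. Calvariae of neonatal mice aged 5 to 9 days were digested with trypsin and collagenase P, and the released cells were grown for 4 days and sorted for the fluorescent protein. The sorted cells were then grown with ascorbic acid, 4 mM beta-glycerol phosphate and 10% fetal bovine serum, and RNA was taken on days 2, 4, 6, 8, 10, 12, 14, 16 and 18. The transgene, the sort and the medium were common to all 9 days, every sample was of 1 strain, there was no culture without the medium or with added interferon, and whether animals were pooled was not given. The sort takes cells in which the promoter fragment is active, so it selects a population and not a single cell type.

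Each day had 3 files that carried 1 barcode and came from different lanes, so a day was counted as 1 sample and the study as 9 samples without biological replicates. An SD over the 3 files covers sequencing and quantification only. Total counts per day ranged from 22470195 on day 10 to 62009157 on day 12, with a median of 43146793. Levels are given as TPM, a measure per transcript length in which each file was scaled by its upper quartile. They were not tested, apart from a straight line by limma given below. Day is the only variable, so a change with time could not be told apart from a change with the library made on that day. RNA came from whole cultures, and fewer cells of a type and less RNA per cell cannot be told apart. Col1a1 and Col1a2, the chains of type I collagen, were high on every day, and the summed level of 12 osteoblast and osteocyte markers was 3002 TPM on day 2 and reached 9604 TPM on day 18, most of it from these collagen genes. Sp7, a transcription factor of the osteoblast lineage, was at 32.3, 3.50, 2.77 and 10.6 TPM on days 2, 6, 8 and 18. Alpl, the alkaline phosphatase of mineralizing cells, was at 9.13, 0.467, 1.45 and 17.6 TPM on the same days, so both were low on the days on which the members were highest, and their part in the members' course was not tested. The other markers did not all share this dip. Spp1 was at 402, 1012, 583 and 532 TPM and Runx2 at 46.4, 45.2, 50.2 and 62.0 TPM on those days. Dmp1, Phex and Bglap2 were higher on day 8 than on day 2, though Dmp1 had 4.00 and Bglap2 4.42 counts on day 2. Bglap had 4.58 counts on day 2 and 1.00 on day 8, too few to read a direction. Sost, an osteocyte marker, had 13 counts in all 9 libraries together.

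Interferons are secreted proteins that cells release when they detect foreign or misplaced nucleic acid. Type I interferons bind the receptor pair Ifnar1 and Ifnar2, whose kinases Jak1 and Tyk2 act on Stat2, which joins Irf9 in a complex that binds the interferon-stimulated response element. Interferon gamma acts through Ifngr1, Ifngr2, Jak1 and Jak2, and its targets carry the gamma-activated site. The genes switched on encode antiviral effectors, sensors of viral RNA and regulators of the pathway itself, and interferon signalling is known to restrain osteoclast formation in bone.

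To show what these target genes share in sequence, the promoters of the members were searched for both elements. The promoter table of RefSeq for GRCm38.p6 gives 250 bases before and 50 bases after each annotated start, and it held 27 of the 34 members. Dhx58, Usp18, Mx1, Parp14, Oas2, Parp9 and Mx2 were not searched. The core of the response element was taken as GAAA, any 2 bases and GAAA on either strand, and 16 of the 27 members had it in at least 1 window, against 3.99% of all 27025 symbols in the table. The gamma-activated site was taken as TTC, any 3 bases and GAA, which reads the same on both strands, and 9 of the 27 had it, against 9.55% of all symbols. The matches can overlap one another, and a match describes letters and not binding.

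The following sites are shown because their genes span the widest and the narrowest courses described below, with the core in capitals and each read 5′ to 3′ on the strand that gives GAAA:
Isg15: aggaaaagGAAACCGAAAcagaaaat
Ifit1: agcagtgaGAAACTGAAActgagact
Ifit3: ggaaagtaGAAACTGAAAcagactta
Oas1a: gggaaatgGAAACTGAAAatctactt
Bst2: aggaaaatGAAACTGAAAggctgcag
Irgm1: aagaaataGAAACCGAAActgattct
Ifitm3: acttctgaGAAACCGAAActgccgca
Eif2ak2: tccgccggGAAAACGAAAcagaagag
Counted from the annotated start, the first base of the core in the window lay at position -72 in Isg15, -85 in Ifit1, -122 in Ifit3, -14 in Oas1a, -124 in Bst2 and -24 in Irgm1. In Ifitm3 and Eif2ak2 it lay after the start, at positions 20 and 19. The core of Isg15 is 1 of 3 that overlap in a single run, shown here in the 250 bases before the start, chr4:156200819-156201068 on the minus strand of GRCm38.p6, with all 3 matches in capitals:
Isg15 promoter: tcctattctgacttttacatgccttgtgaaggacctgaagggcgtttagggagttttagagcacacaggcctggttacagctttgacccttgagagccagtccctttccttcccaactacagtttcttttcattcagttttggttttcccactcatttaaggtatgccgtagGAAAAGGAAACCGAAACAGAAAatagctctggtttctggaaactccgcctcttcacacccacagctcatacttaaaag
Irf1 is shown as the member with the narrowest course, and neither of its 2 windows held the core of the response element. It had a gamma-activated site at position -90, given in capitals, on the plus strand at chr11:53769924-53769932:
Irf1: agcctgatTTCCCCGAAatgatgag

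Nearly all members were lowest at the start of the course and highest around day 8. In 33 of the 34, the highest of the 9 levels fell on day 6 or day 8, against 16.5% of the 15659 genes tested; these 2 days were picked out after the levels had been seen. The highest level was on day 8 in 30 members, on day 6 in Gbp2, Ifitm3 and Oas3, and on day 12 in Irf1. In some members days 6 and 8 overlapped within the spread of the files, among them Oas3, Xaf1, Mx1 and Ifi35. Gbp2 stood at 49.6 ± 2.07 TPM on day 6 and 48.6 ± 2.32 TPM on day 8 (SD over 3 files). The lowest level was on day 2 in 33 members and on day 4 in Mx1, which by counts was lowest on day 2, with 3 counts against 9. When file 1, 2 or 3 of each day was left out, 33, 32 and 33 members had their highest level on day 6 or 8.

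**Figure D1:**
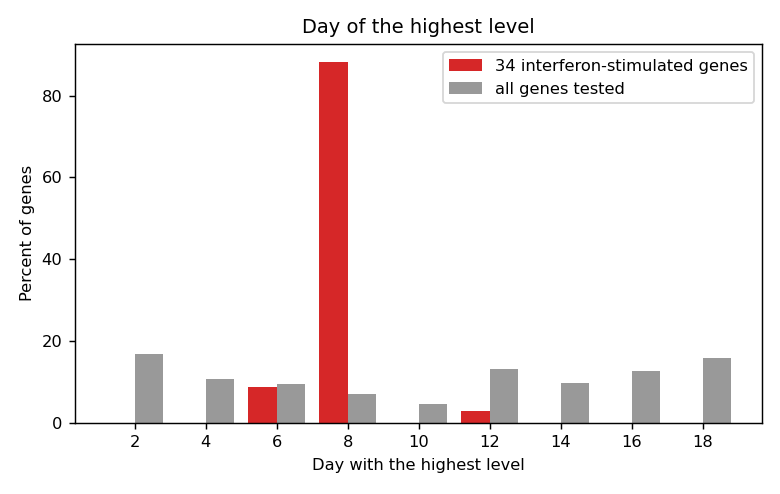
Bars give the percent of genes whose highest level fell on each day, for the 34 interferon-stimulated genes and for all 15659 genes tested. Day 8 held 30 of the 34 members and 6.97% of all genes.

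The steps between neighbouring days were uneven. From day 2 to day 4, 26 members stood at least 2-fold higher, against 10.5% of all genes tested. From day 4 to day 6, 27 did so, against 8.29%, and in the 33 members with a level above 0 on every day the median ratio was 3.03. From day 6 to day 8 the median ratio was 1.27, so most of the height was present on day 6. From day 8 to day 10, 21 members stood at least 2-fold lower, against 7.43% of all genes tested. The levels did not come back to those of day 2, since all 33 members stood higher on day 18 than on day 2, with a median ratio of 3.54 and a range from 1.18 in Xaf1 to 39.8 in Oas2, a gene with 2 counts on day 2. Over all genes with a level above 0 on every day, 55.6% stood higher on day 18 than on day 2.

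**Figure D2:**
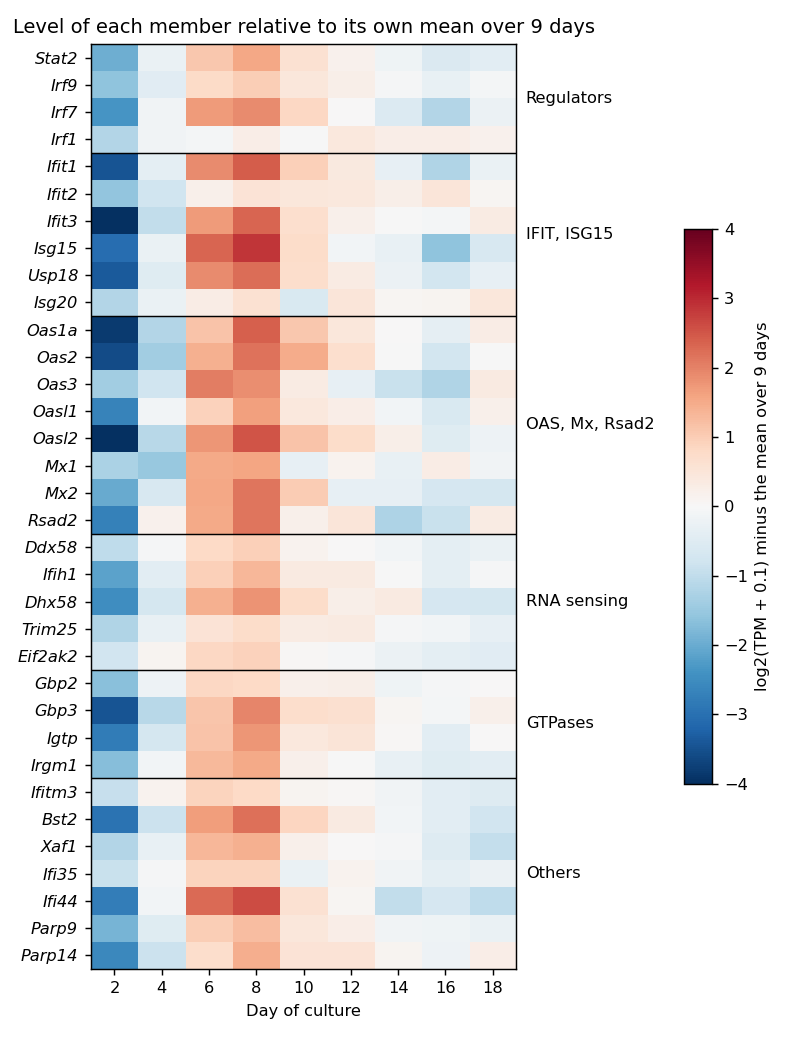
Each row is an interferon-stimulated gene and each column a day of culture, and the colour gives log2(TPM + 0.1) minus the gene's own mean over 9 days. Day 8 is above the mean in all 34 rows, day 6 in all but Irf1, and day 2 is below it in all 34.

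A straight line in day was fitted to the counts in edgeR, with a quasi-likelihood test and p-values adjusted by Benjamini-Hochberg, to ask which members went up or down over the whole course. No member rose and no member fell at an adjusted p under 0.05, and none had an unadjusted p under 0.05, whereas 28.3% of the 15659 genes tested rose and 26.1% fell. DESeq2 called 2 of the 34, a rise of Ifit2 and a fall of Ifi44, beside 4568 rises and 4342 falls among all 15659 genes. Without the library of day 2, edgeR called 8 falls, and without that of day 18 it called 1 rise. No share of all genes is given for these leave-out fits, so nothing is drawn from their counts of members. Fitted changes from day 2 to day 18 ranged from -3.51 in Ifi44 to 1.13 in Ifit2 on the log2 scale, with a median of -0.68 in the members and 0.05 in all genes. A line through log2(TPM + 0.5) by limma gave a member median of 0.46, so the sign of the median depended on the model and no direction is drawn from it.

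A natural spline of day, fitted on 3 degrees of freedom, asks whether a level changed in any smooth shape, and has no direction. All 34 members passed this test in edgeR, as did 59.1% of all genes tested, and adjusted p-values of the members ran from 1.27e-07 in Stat2 to 0.0186 in Isg20. The difference between the highest and the lowest fitted day ranged from 1.11 in Irf1 to 8.53 in Oas3, a gene without a count on day 2, and had a median of 4.43 log2 units against 0.95 in all genes. The fitted curve was highest on day 8 in 32 members and on day 10 in Ifit2 and Irf1. Without day 2 the spline called 32 of 34, and Isg20 and Irf1 were lost with edgeR adjusted p of 0.475 and 0.634. The 59.1% belongs to the fit with all 9 days, and no share of all genes is given for the fit without day 2. A parabola in day, tried after the levels had been seen, called 12 of the 34.

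**Figure D3:**
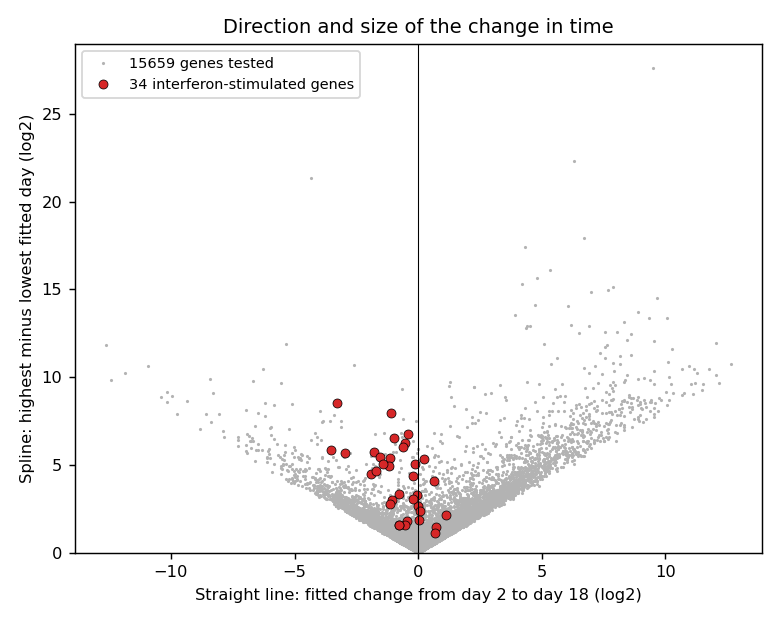
Each point is a gene, with the fitted change of a straight line from day 2 to day 18 on the x axis and the difference between the highest and lowest fitted day of the spline on the y axis, both in log2 units. The members, in red, lie between -3.51 and 1.13 on the x axis and between 1.11 and 8.53 on the y axis.

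Windows of 3 days each were compared next, with days 2, 4 and 6 as early, 8, 10 and 12 as middle and 14, 16 and 18 as late. From the early to the middle window only Ifit2 rose past the threshold, by 1.02 ± 0.34 log2 units (SE, edgeR adjusted p = 0.0461), against 17.3% of all genes tested. That call was lost without any single day other than day 6. Without day 6, which lies in the early window and near the height of the course, 21 members rose. The 17.3% belongs to the fit with all 9 days, and no share of all genes is given for the fit without day 6. From the middle to the late window edgeR called 0 of 15659 genes, with 2557 genes and 1 member at an unadjusted p under 0.05, and DESeq2 called 562 genes and no member. All 34 fitted changes between these windows lay below 0, from -2.89 in Ifi44 to -0.03 in Irf1, with a median of -1.24 against -0.01 in all genes.

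The members that regulate the response differed in how far they rose. Values are given from here on in day order, from day 2 to day 18. Stat2, a subunit of the complex that binds the response element, stood at 5.88, 19.4, 49.1, 67.4, 35.0, 26.2, 20.5, 15.3 and 17.3 TPM. Irf9, which binds DNA in that complex, stood at 8.26, 18.6, 43.3, 49.6, 34.8, 29.7, 24.6, 20.6 and 24.1 TPM. Irf7, a factor that amplifies type I interferon genes, stood at 1.57, 7.75, 27.8, 32.3, 15.3, 8.70, 5.87, 3.72 and 7.30 TPM. All 3 were highest on day 8, and Irf7, with a day 8 level 20.7 times that of day 2, fell the furthest, to 3.72 TPM on day 16. Irf1, a factor induced strongly by interferon gamma, stood at 3.35, 6.94, 7.28, 9.12, 7.59, 10.2, 9.13, 9.07 and 8.56 TPM, higher from day 4 on than on day 2 and without a sharp peak. Its levels on day 8 (9.12 ± 2.62, SD over 3 files) and on day 12 (10.2 ± 0.277) overlapped within the spread of the files.

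The Ifit proteins bind viral RNA with foreign ends, and the genes lie near each other on chromosome 19 of NCBIM37, Ifit2 at chr19:34625184-34650909, Ifit3 at chr19:34658021-34663221 and Ifit1 at chr19:34715361-34724499. Ifit1 stood at 3.53, 30.8, 148, 216, 76.9, 52.8, 31.6, 17.4 and 33.3 TPM. Ifit3 stood at 1.20, 11.8, 76.1, 118, 36.7, 26.6, 22.7, 21.9 and 29.3 TPM. Both had a sharp peak on day 8, and both share reads with other genes, with fractional counts in 27 files of Ifit1 and 25 of Ifit3. Ifit2 stood at 2.72, 4.77, 9.63, 12.3, 11.5, 11.3, 9.91, 11.7 and 8.78 TPM, rising to day 8 and staying close to that level to day 16. Its day 8 level was 4.50 times that of day 2, against 61.2 times in Ifit1 and 99.1 times in Ifit3. It was 1.04 times that of day 16, against 12.4 times in Ifit1 and 5.40 times in Ifit3.

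Isg15 encodes a ubiquitin-like modifier that is attached to other proteins, and Usp18 removes it and also dampens the type I receptor. Isg15 stood at 4.97, 34.8, 211, 306, 69.8, 38.5, 34.0, 13.5 and 26.7 TPM. Usp18 stood at 0.876, 7.00, 37.1, 46.7, 16.2, 12.4, 8.29, 5.85 and 7.88 TPM. Isg15 had the largest drop between days 8 and 10 of the 33 members compared, 4.38-fold, and its level on day 8 (306 ± 5.28 TPM, SD over 3 files) was 22.6 times that on day 16. Isg20, an exonuclease that degrades RNA, stood at 10.6, 19.8, 29.4, 36.9, 15.5, 33.2, 25.2, 26.0 and 33.0 TPM, with a low value on day 10 and levels on days 12 and 18 near that of day 8.

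**Figure D4:**
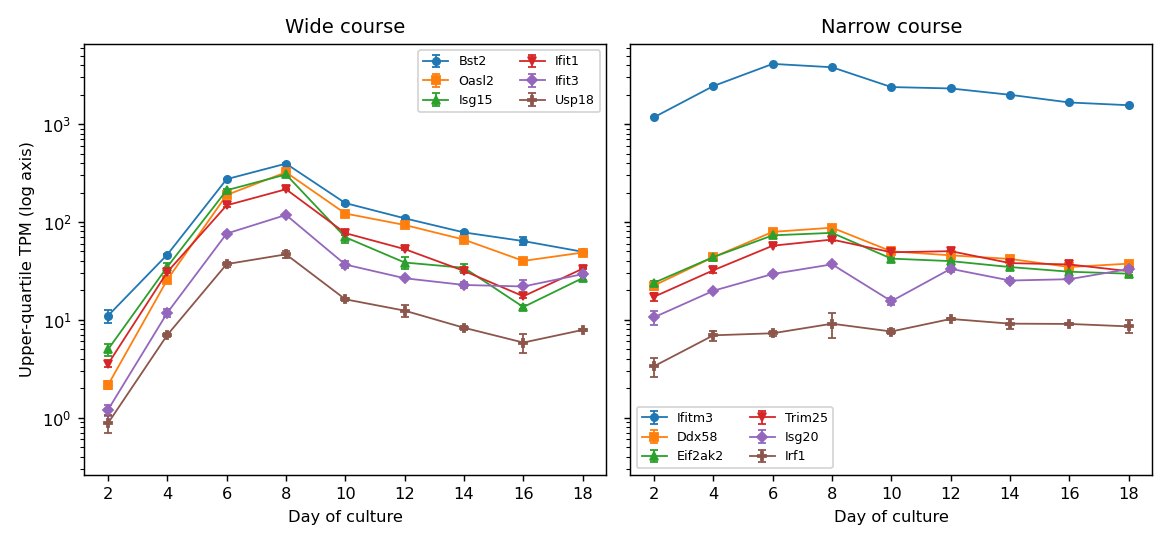
Upper-quartile TPM on a log axis is plotted by day for 6 members with a wide course, left, and 6 with a narrow course, right, with points as means and bars as SD over 3 lane files of 1 library. On the left Bst2, Oasl2, Isg15 and Ifit1 rise to between 216 and 395 TPM on day 8, and on the right Irf1 stays between 3.35 and 10.2 TPM.

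The oligoadenylate synthetases sense double-stranded RNA and make the signal that switches on RNase L, and Oasl1 and Oasl2 are related proteins. All 5 genes lie on chromosome 5. Oasl2 was by far the most abundant, at 2.15, 25.7, 189, 322, 122, 93.2, 66.0, 40.0 and 48.7 TPM. The others were scarce: Oas1a stood at 0.0958, 1.15, 6.10, 14.6, 5.82, 3.69, 2.72, 2.06 and 3.34 TPM, and Oas2 at 0.0382, 0.528, 4.29, 7.43, 4.53, 2.55, 1.53, 0.898 and 1.52 TPM. Oasl1 reached at most 2.24 TPM and Oas3 at most 0.994 TPM, below the level of 1 TPM that is taken as expressed. The counts behind the low values were small on day 2, with 4 for Oas1a, 2 for Oas2, 1 for Oasl1 and none for Oas3. In CPM, the share of all counts, day 8 stood 153 times above day 2 for Oas1a (95% interval 59.2 to 563), 344 times for Oas2 (94.6 to 2846) and 69.6 times for Oasl1 (11.9 to 2804). Oas3, with 70 counts on day 8, stood 33.1 times above what 3 counts on day 2 would give, a ratio without an interval. The intervals of Oas1a, Oas2 and Oasl1 are exact binomial and cover counting error only. They overlap, so no order among these genes is drawn. In TPM the ratio was 194 for Oas2 and 116 for Oasl1.

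Oasl1 in full stood at 0.0193, 0.593, 1.33, 2.24, 0.915, 0.813, 0.598, 0.396 and 0.768 TPM and Oas3 at 0, 0.0515, 0.994, 0.864, 0.229, 0.111, 0.0408, 0.0141 and 0.239 TPM. Oas3 was thus highest on day 6, with a median SD over files of 67.5% of its level, the widest of the members.

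Mx1 and Mx2 encode antiviral GTPases, though many laboratory strains, C57BL/6 among them, carry forms of both genes that give no working protein. Mx1 stood at 0.231, 0.174, 2.16, 2.28, 0.526, 0.776, 0.537, 0.870 and 0.620 TPM. Mx2 stood at 0.275, 0.882, 4.41, 6.61, 2.96, 1.12, 1.13, 0.856 and 0.831 TPM. Neither reached 10 TPM, and both were highest on day 8. Rsad2, or viperin, an enzyme that makes a chain-terminating nucleotide, stood at 0.0322, 0.882, 2.38, 3.71, 0.889, 1.10, 0.272, 0.368 and 0.986 TPM. With 3 counts each on day 2, the ratio of day 8 to day 2 in CPM was 55.4 for Mx1 (95% interval 18.5 to 272) and 118 for Rsad2 (39.9 to 575). In TPM the ratio of Mx1 was 9.85, outside that interval, so its size depended on the measure.

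The RNA sensors had courses of different widths. Ddx58, which encodes RIG-I, stood at 22.4, 43.7, 79.2, 87.4, 50.1, 45.6, 41.9, 34.6 and 37.5 TPM. Ifih1, which encodes MDA5, stood at 3.61, 12.3, 31.8, 41.5, 21.3, 21.3, 16.1, 12.6 and 15.9 TPM. Dhx58, which encodes the related LGP2, stood at 0.906, 3.42, 15.3, 19.8, 9.27, 6.66, 7.19, 3.46 and 3.39 TPM. The highest level was 3.90 times the lowest in Ddx58, 11.5 times in Ifih1 and 21.9 times in Dhx58, and it was the most abundant of the 3, Ddx58, that changed least. Trim25, a ubiquitin ligase that acts on RIG-I, stood at 17.2, 32.1, 57.2, 66.1, 49.0, 50.3, 38.0, 36.8 and 31.4 TPM. Eif2ak2, or PKR, a kinase that halts translation on binding double-stranded RNA, stood at 23.9, 43.8, 73.0, 77.4, 42.2, 39.8, 34.6, 31.0 and 29.6 TPM. Both were present on day 2 and rose less than 4-fold, with highest levels 3.85 and 3.24 times the lowest.

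Guanylate-binding proteins and immunity-related GTPases act on membranes that enclose pathogens and are known above all as targets of interferon gamma. Gbp2 stood at 8.81, 24.4, 49.6, 48.6, 32.0, 33.3, 25.1, 27.2 and 28.1 TPM. Gbp3, its neighbour on chromosome 3, stood at 0.837, 4.72, 22.1, 39.7, 16.6, 15.9, 10.9, 9.82 and 11.8 TPM. Gbp2 was the more abundant of the pair on every day and Gbp3 had the wider course, 47.5 against 5.63 times from lowest to highest. Igtp stood at 2.68, 11.9, 43.0, 66.4, 25.8, 28.0, 20.1, 14.5 and 19.4 TPM. Irgm1 stood at 8.05, 24.4, 64.3, 74.5, 30.5, 26.2, 21.5, 18.8 and 19.4 TPM. Both peaked on day 8, and Igtp was counted with reads shared with other genes in all 27 files.

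Ifitm3, a membrane protein that blocks viral entry, was the most abundant member on every day, at 1177, 2453, 4133, 3818, 2395, 2318, 1996, 1666 and 1562 TPM. It alone made up most of the summed level of the 34 members, which was 1360 TPM on day 2, 6265 TPM on day 8 and 2128 TPM on day 18. Without Ifitm3 the sum was 183 TPM on day 2, 2447 TPM on day 8 and 516 TPM on day 16. Bst2, or tetherin, which holds budding viruses at the cell surface, came next on day 8 and stood at 11.0, 46.4, 274, 395, 156, 109, 78.2, 63.8 and 49.6 TPM. Xaf1, a protein linked to cell death, stood at 19.6, 36.0, 112, 120, 51.1, 45.0, 42.8, 31.3 and 23.0 TPM. On day 8 its level (120 ± 7.33, SD over 3 files) and that of Ifit3 (118 ± 2.75) did not differ beyond the spread of the files.

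The remaining members followed the same course at lower levels. Ifi44 stood at 1.42, 9.60, 50.3, 63.1, 15.7, 11.0, 5.16, 6.37 and 5.05 TPM and had come down to 5.05 TPM on day 18. Ifi35 stood at 11.8, 21.2, 41.0, 41.2, 18.3, 24.2, 20.1, 16.8 and 18.6 TPM. Parp9, an ADP-ribosyltransferase family member, stood at 3.87, 10.1, 28.2, 33.6, 19.7, 17.3, 13.1, 12.7 and 11.9 TPM, and its relative Parp14 at 1.05, 3.65, 11.1, 18.4, 9.87, 9.77, 7.32, 5.87 and 8.11 TPM. Ifi35 differed little between days 6 and 8, and Parp14 rose on both steps.

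Across the 34, the correlation over 9 days of each member's log2 level with the median course of the members was above 0.9 in all but Irf1 (0.650), Isg20 (0.691), Ifit2 (0.763), Mx1 (0.832) and Oas3 (0.843). This is a description over 9 libraries in which every gene shares the depth of its day, and each member is part of the median. Members with the GAAA pair in the promoter had a median ratio of day 8 to day 2 of 24.8 (15 members with a level above 0 on day 2, range 3.24 to 152), and the 11 without it one of 6.00 (range 2.72 to 150). The ranges overlap, with Oasl2 at the top of the second group, and the difference was not tested.

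The ligands of the pathway were next to absent. Of 21 interferon genes, 16 had no count in any of the 9 libraries, and the 21 together had 35 counts, 23 of them from Ifnz. No interferon gene reached 1 TPM on any day. Ifnb1, the interferon most cells make first, had 1 count, on day 8. A count of 3 corresponds to between 0.0484 and 0.134 CPM in these libraries, so interferon RNA below about that level was not detectable at this depth, and protein in the medium or serum was not measured.

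Il28ra lay between 0.0255 and 0.325 TPM, below 1 TPM on every day. It was highest on day 8, with 26 counts against 3 on day 2, and passed neither the line nor the spline. The other receptors were present throughout, and most of them moved far less than the members. Ifnar1 stood at 28.1, 25.6, 27.3, 35.5, 31.6, 37.1, 31.7, 40.4 and 33.2 TPM and rose in a straight line by 0.51 ± 0.11 log2 units (SE, edgeR adjusted p = 0.00288). Ifnar2 stood at 52.7, 74.8, 82.4, 99.9, 101, 132, 115, 129 and 130 TPM and rose by 0.96 ± 0.13 (adjusted p = 0.000215). Ifngr1 took the opposite course to the members, at 41.2, 31.9, 17.8, 18.9, 20.3, 28.9, 33.6, 29.8 and 42.0 TPM, lowest on days 6 and 8, and passed the spline test (edgeR adjusted p = 0.000152). Ifngr2, Jak1 and Tyk2 passed neither the line nor the spline, Jak2 fell by 0.41 ± 0.10 log2 units and Stat3 by 0.47 ± 0.12. Of the 10 receptors and kinases read here, 3 rose and 2 fell in the line, and 6 passed the spline, against 28.3%, 26.1% and 59.1% of all genes tested. Beside all genes, their median difference between highest and lowest fitted day was 0.47 against 0.95 log2 units.

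Of 15 genes of nucleic acid sensing, 14 were tested, and 3 rose, 3 fell and 9 passed the spline, near the 28.3%, 26.1% and 59.1% of all genes tested. The highest level fell on day 6 or 8 in 6 of the 14, against 16.5% of all genes tested. Among these, Tlr3 stood at 3.47 TPM on day 2 and 13.5 on day 8, and Ikbke at 3.47 and 7.43. Tlr7, an endosomal RNA sensor, rose by 4.08 ± 0.37 log2 units (edgeR adjusted p = 3.41e-05), at 0.689, 0.810, 0.780, 2.49, 4.47, 9.29, 10.5, 7.49 and 16.0 TPM, with its highest level on day 18. Ticam1, an adaptor of Tlr3, rose by 0.57 ± 0.11. Tmem173, which encodes STING, fell by 1.49 on the log2 scale and Tbk1, its kinase, by 0.70. Zbp1, a sensor of Z-form nucleic acid that is itself interferon-induced, stood at 1.54, 9.44, 38.4, 35.9, 8.50, 7.68, 2.28, 4.10 and 2.19 TPM, high on the days on which the members were high, and passed the spline (adjusted p = 1.44e-06) and not the line. Mb21d1, which encodes the DNA sensor cGAS, had its highest level on day 6.

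Of 12 feedback inhibitors all were tested, and 3 rose, 4 fell and 9 passed the spline, where all genes gave 28.3%, 26.1% and 59.1%. Pias1 rose by 0.70 ± 0.12 and Irf2 by 0.84 ± 0.23 log2 units. Socs3, which blocks Jak kinases, fell by 1.69, Ptpn2 by 0.66 and Pias4 by 0.40. Socs3 rose before it fell, at 5.54, 18.1, 17.1 and 7.85 TPM on days 2, 4, 8 and 18, so in TPM it ended above day 2. Its median SD over files was 78.2% of its level. The call of Pias4 rests on counts, since its level in TPM went the other way, from 15.3 on day 2 to 51.5 on day 18. Adar, the RNA-editing enzyme that keeps self RNA from the sensors, stood at 5.91, 11.3, 17.0, 18.7, 11.0, 8.31, 8.57, 6.69 and 7.37 TPM and was highest on day 8, and the nuclease Trex1 was highest on day 6.

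Other genes known to be induced by interferon were listed beside the members, and 42 were tested. The highest level fell on day 6 or 8 in 34 of them, against 16.5% of all genes tested, and 41 passed the spline, against 59.1%. In the line 5 rose and 2 fell, against 28.3% and 26.1% of all genes. The largest rises were in Slfn5, Ifi203 and Tapbp. Slfn5 stood at 1.25, 4.46, 13.1, 21.5, 40.4, 68.0, 71.3, 76.7 and 90.2 TPM, a rise of 5.41 ± 0.87 log2 units (edgeR adjusted p = 0.000541), and was highest on day 18. Ifi203 stood at 0.640, 1.93, 11.7, 29.4, 23.4, 29.1, 21.6, 25.7 and 31.1 TPM, a rise of 3.55 ± 1.36. Tapbp, which loads peptides on class I molecules, stood at 11.3, 26.5, 54.0, 67.3, 88.2, 103, 90.1, 92.9 and 97.0 TPM, a rise of 2.21 ± 0.60. These genes climbed with the members to day 8 and did not come down with them. Pnpt1 and Pml fell, by 1.67 and 1.17 log2 units, and both were highest on day 6.

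Markers of cells that could lie in the culture beside osteoblasts were read on the same days. The 7 monocyte and macrophage markers summed to 24.1, 36.5, 61.7, 68.1, 190, 451, 522, 877 and 2014 TPM, mostly Lyz2, and 6 of the 7 rose in the line, so this sum was low on days 6 and 8 and highest on day 18. From day 14 to day 16 the sum went from 522 to 877 TPM. On that step 6 of the 33 members stood higher, against 52.8% of all genes. Between days 16 and 18, when the sum more than doubled, 21 of the 33 members stood higher on day 18, Rsad2 by 2.68-fold, against 45.5% of all genes. The part of those cells in the late levels was not tested. Dendritic cell markers without Bst2, itself a member, summed to between 1.32 and 2.37 TPM, and Siglech had 10 counts in all. Of the lymphocyte markers, Cd3e, Cd3g, Ms4a1 and Ncr1 had no count. Cd4 had 357 counts and rose in the line by 4.54 ± 1.54 log2 units (edgeR adjusted p = 0.0292). It was at 0 TPM on days 6 and 8 and at 3.07 TPM on day 18. Cd79a, with 78 counts, stood at 0.462 TPM on day 6 and 0.412 TPM on day 8, and passed neither the line nor the spline. Cd8a had 25 counts and Nkg7 had 24, and neither gene was tested. Of the mast cell and neutrophil markers, Mcpt4 and Mpo had no count, and both that were tested rose, Kit by 7.69 ± 0.94 and Cpa3 by 5.37 ± 1.84. Kit was at 0 TPM on day 6, 0.0375 on day 8 and 1.22 on day 18, and Cpa3 reached at most 0.910 TPM, on day 14. The 5 adipocyte markers summed to 6.51 TPM on day 8 and 407 TPM on day 18, and the 4 endothelial ones to at most 12.0 TPM.

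**Figure D5:**
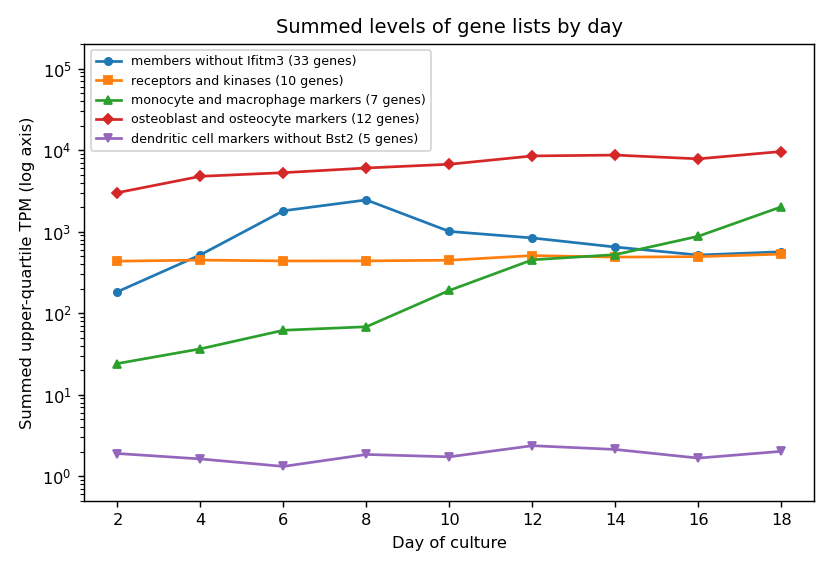
Summed upper-quartile TPM on a log axis is plotted by day for 33 members, 10 receptors and kinases, and 3 lists of cell type markers. The members lie at 183 TPM on day 2, 2447 TPM on day 8 and 516 TPM on day 16, while the macrophage markers run from 24.1 to 2014 TPM and are at 68.1 TPM on day 8.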

How the data were processed

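RNA was amplified with the NuGEN Ovation kit and sequenced from TruSeq libraries of mouse calvarial cells on 9 days. The authors aligned reads with Bowtie 0.12.9 and quantified genes with RSEM 1.2.8 on NCBIM37, per the submitters' processing notes; the methods of the study name another RSEM version. The deposited expected counts are not normalized, the deposited TPM are scaled per transcript length, and the deposited FPKM values served as an alternative only. Symbols came from the GENCODE annotation of NCBIM37, for 37205 of 37991 identifiers.

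The 3 files of a day were summed and rounded for counts, or averaged as TPM after division by each file's 75th percentile over values above 0 (factors 0.933 to 1.11). edgeR 4.0.16 in R 4.3.3 (quasi-likelihood test, upper-quartile factors, a count minimum of 10 in filterByExpr, calls at a Benjamini-Hochberg adjusted p under 0.05) was fitted to 15659 genes and tested on simulated data. RSEM divides shared reads, and 15 members had fractional counts in some file. All 34 members were named with daily values, since each passed the spline; of other lists, the 3 largest rises and falls past the threshold at a mean of 5 TPM or more, any receptor or ligand, and further genes chosen after their values were seen. The members and lists were chosen with earlier results of these data known, and a few listed genes are not reported here. Alternatives were DESeq2 1.42.0, limma 3.58.1, TMM factors, other filters, the 27 files as samples, and single files or days left out.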

Additional observations from a re-analysis of the deposited data

How the results depend on the processing

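The spline called all members tested under TMM factors, DESeq2, both filters on counts and without any day but day 2; over the settings that leave out a file or a day the number ran from 32 to 34, and with a parabola, added after seeing the data, it was 12 members and 1954 genes. For the straight line, the number of members called was 0 under TMM factors, both filters and in late against early days, 2 by DESeq2 (1 rise, 1 fall), 2 by limma with either pseudocount (2 rises, Ifit2 and Irf1), and from 0 to 8 when a file or a day was left out: 8 fell without day 2 and 1 rose without day 18. From the early to the middle window the number ran from 0 (without file 3 or any single day but day 6) to 21 (without day 6), and from the middle to the late window it stayed at 0 in those settings. The median ratio of day 8 to day 2 was 17.4, 21.3 as CPM with TMM factors, and 15.7 to 21.0 when a file of each day was left out. The fall of Ifi44 was 3.51 on the log2 scale in edgeR, but limma gave -0.58. Apart from the parabola, the counts of members called here stand without the share of all genes in the same fit. Causes were not tested.

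Replicate numbers coincide with lanes and did not pair the samples: deviations of same-numbered files had a mean correlation of 0.000124 and a lowest of -0.143. With the 27 files as samples, the line called 7 members (3 rises, 4 falls) without and 7 with a replicate block, the early to middle comparison 14 without and 10 with the block, and the middle to late comparison 25 without and 23 with it. Such fits treat files of 1 library as replicates, and their counts of calls do not speak of cultures. These counts are of members only, without the share of all genes called in the same fits, so nothing is drawn from their size. Depth limits Oas3, Oasl1, Oas2, Oas1a, Mx1 and Rsad2, the 6 members with at most 10 counts on day 2. A gamma-activated site with 2 or 4 bases between TTC and GAA was found in 6 of the 27 members searched in each case. The shares of all symbols were 9.60% and 8.01%.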

Other observations

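Genes, members included, were ranked by the correlation over 9 days of their log2 level with the median course of the members, among 1198 genes with a mean of at least 5 TPM and a range of at least 2 log2 units. Of the 60 most alike, 19 were members and 19 were on the list of other induced genes, the members being part of the median. The rest were chosen by this ranking after the values had been seen, and some are not commonly counted as interferon targets. Mmp13, a collagenase, stood at 4.76 TPM on day 2, 142 TPM on day 8 and 91.1 TPM on day 18. Crabp1, a retinoic acid-binding protein, stood at 179 TPM on day 2, 979 TPM on day 8 and 133 TPM on day 18. Thbs4, a matrix thrombospondin, stood at 6.00, 27.1 and 19.4 TPM on the same days. The correlations of Thbs4, Mmp13 and Crabp1 with the median course were 0.941, 0.844 and 0.830, over 9 libraries that share a depth per day, and carry no test.

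A further description used size in place of shape. Of 9566 genes tested with at least 5 TPM on day 8, 60 stood at least 3-fold above both day 2 and day 16, with levels under 0.5 TPM set to 0.5, and 19 of these were members and 11 were on the list of other induced genes. The days of comparison were chosen after the course had been seen. Cxcl10, a chemokine known as an interferon target, was among the rest at 11.3-fold.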
